A study of Mus musculus with 3 samples.

Results

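Classical monocytes are the Ly6C-high, CCR2-bearing monocytes of mouse blood. They were described here in 4 hashed blood samples of a CITE-seq pool, an assay that reads messenger RNA, antibody barcodes and sample hashtags from the same cell. Members were the cells of cluster 3 of the naive blood table and cluster 2 of the metastasis-bearing blood table, as the authors numbered them. They were thus selected on measured expression. A member's barcode occurred in 1 deposited table only, and at least 0.5 of its hashtag counts came from hashtags of its own table. It held no Cd209a, a type 2 dendritic cell gene, and its summed corrected counts of Ly6c2, Ccr2, Vcan, F13a1 and Fn1 were larger than those of Ace, Ear2, Treml4, Adgre4 and Eno3, genes of the patrolling Ly6C-low monocyte. The rule kept 797 cells out of 7713 clear blood cells, which were part of 11063 clear cells in the series. Naive Het blood gave 91 members, naive Hom blood 92, metastasis Het blood 235 and metastasis Hom blood 379.

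The mice were females of 2 to 3 months on a C57Bl/6 background. Metastasis-bearing mice had received E0771 cells, a mouse mammary carcinoma line, into the carotid artery about 2 weeks earlier, and naive mice had not. The library label lists the genotypes Cx3cr1+/-, Cx3cr1-/-, CCR2+/- and CCR2-/- for the whole pool, which also held brain immune cells, and it does not say which gene Het and Hom refer to in blood. Every group was therefore a heterozygous or homozygous mutant sample, and no wild-type blood was analysed here. Blood was drawn from the heart into heparin and its red cells were lysed before staining. Each group was 1 hashed sample, and nothing says whether a hashtag stood for 1 animal or several. No difference between groups had a replicate check, and the intervals below are 95% intervals that cover counting error only.

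Classical monocytes leave the bone marrow through the chemokine receptor CCR2 and are recruited to inflamed tissue and tumours, where they give rise to macrophages and dendritic cells. In blood they lose Ly6C and become patrolling monocytes, which carry high CX3CR1, the receptor of the chemokine fractalkine, and which depend on it for survival. Type I and type II interferons induce a large set of antiviral and antigen-presentation genes in monocytes, and glucocorticoids and bacterial signals change other sets.

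The group of every cell rested on a 15-base hashtag barcode, and the gates described at the end rested on antibody barcodes of the same length. Those that carry the comparisons are shown as the deposited tag list gives them, with no part capitalised because none is singled out.
M-HTO-5, naive Het: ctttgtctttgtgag
M-HTO-7, naive Hom: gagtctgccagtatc
M-HTO-6, metastasis Het: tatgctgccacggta
M-HTO-8, metastasis Hom: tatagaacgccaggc
Ly6C antibody: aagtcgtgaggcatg
NK1.1 antibody: gtaacattactcgtc
CD3 antibody: gtatgtccgctcgat

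The members were deeply read compared with other blood cells. Their median UMI total was 12020 in naive Het, 13012 in naive Hom, 13427 in metastasis Het and 14850 in metastasis Hom blood, against 3928, 4709, 3960 and 4276 over all clear cells of the same samples. The summed corrected counts of the class came to 466392, 459356, 1139965 and 1834415 in the same order, so the naive groups give less precise values than the metastasis groups. Of the 16328 deposited cells, which carried 13757 barcodes, 2401 barcodes stood in more than 1 table and were left out. The 845 barcodes that the blood tables shared measured the offset between the tables, which were normalised separately. Over 7262 genes its median was 0.01 on the log2 scale, its largest value was 0.48, and 0 genes were offset by more than 1.5-fold.

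The label was checked against its markers. All 5 given markers stood far above the other clear blood cells in both tables, as a rule that selects on 4 of them requires, so these folds are a description. Levels are corrected counts per 10000 corrected counts of the cells summed. Ccr2 stood at 18.8 per 10000 in naive and 19.8 in metastasis-bearing members, 29.7-fold and 26.2-fold above the other cells. Ly6c2, which encodes the Ly6C antigen, was 19.6-fold and 12.7-fold above them. Vcan, which encodes the matrix proteoglycan versican, was 61.6-fold and 79.3-fold above them. F13a1, the coagulation factor XIII A chain, was 60.2-fold and 47-fold above them. Chil3, which encodes the chitinase-like protein Ym1, was not used by the gene sums and was 74.6-fold and 40-fold above the other cells. The 20 genes with the largest such ratio also included Ms4a6d, Ms4a6c, Ms4a8a, Ifi211, Ifi207, Mcub, Cd302, F10, Ccl9, S100a4, Lyz2, Fcgr1, Stom and Gstm1. Lyz2, lysozyme, reached 396 per 10000 in naive and 312 in metastasis-bearing members.

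Genes of other cells were low in the class but not absent. Summed B cell markers, 7 genes, ranged from 0.523 to 3.13 per 10000 over the 4 groups, T cell markers, 8 genes, from 0.0702 to 0.74, NK cell markers, 7 genes, from 0.0654 to 0.193, and platelet markers, 7 genes, from 0.0218 to 0.0872. Type 2 dendritic cell markers, 7 genes with Cd209a and Kit at 0, ranged from 0.708 to 1.02. The 10 neutrophil markers were higher and less even, at 22.9 in naive Het, 4.25 in naive Hom, 16 in metastasis Het and 25.5 in metastasis Hom members. Red cell markers stood at 0.472, 66.4, 28 and 3.72 in the same order, and 2 naive Hom cells held 99.4% of the haemoglobin counts of their group.

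The rule's own margin, the first gene sum minus the second, had a median of 33 corrected counts in naive Het, 33 in naive Hom, 40 in metastasis Het and 33 in metastasis Hom members. Members within 5 counts of the boundary numbered 6, 3, 9 and 16. Just outside, 15 of 75, 7 of 53, 9 of 65 and 13 of 80 patrolling cells of the same clusters had margins of 5 or less or tied sums. Few members therefore lay near the boundary, while a larger part of the patrolling cells did.

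Classical monocytes made up more of the blood cells in metastasis-bearing than in naive samples. They were 5.3% of clear cells in naive Het blood (4.29 to 6.47%, exact Clopper-Pearson interval) and 4.65% in naive Hom blood (3.77 to 5.67%). They were 11.3% in metastasis Het blood (10 to 12.8%) and 19.5% in metastasis Hom blood (17.7 to 21.3%). The metastasis share was thus 2.14 times the naive share in Het and 4.19 times in Hom blood. Between genotypes the naive shares lay within each other's interval, at a Hom to Het ratio of 0.877, and the metastasis shares did not, at a ratio of 1.72.

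**Figure D1:**
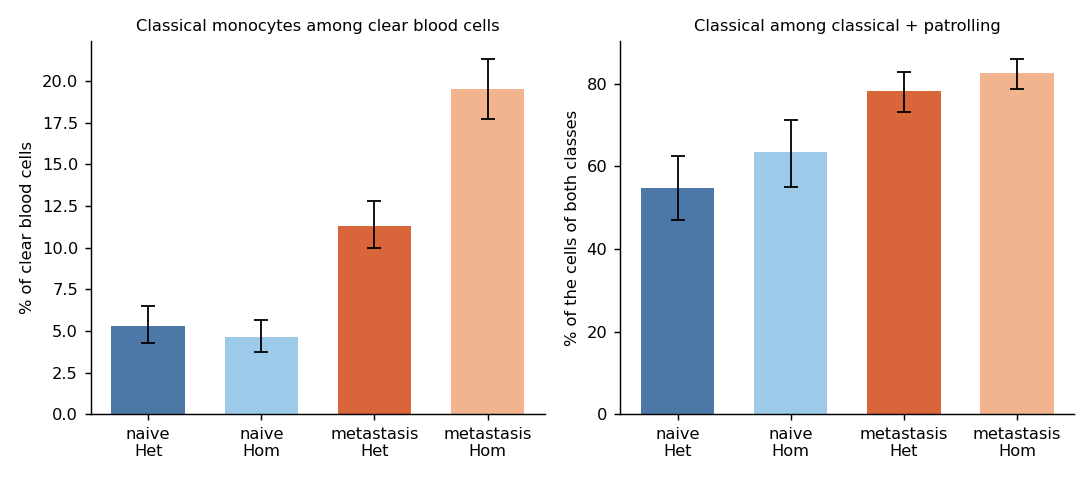
The left panel plots classical monocytes as a percentage of clear blood cells and the right panel plots them as a percentage of classical plus patrolling monocytes, in the 4 hashed samples. Bars are the shares in single samples and capped lines are exact Clopper-Pearson 95% intervals. The share of clear cells runs from 4.65% in naive Hom to 19.5% in metastasis Hom blood.

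Patrolling monocytes of the same clusters showed no such spread. They made up 4.37% of clear cells in naive Het, 2.68% in naive Hom, 3.13% in metastasis Het and 4.11% in metastasis Hom blood, from 75, 53, 65 and 80 cells. Classical cells were accordingly 54.8% (46.9 to 62.5%) of all monocytes in naive Het, 63.4% (55.1 to 71.3%) in naive Hom, 78.3% (73.2 to 82.9%) in metastasis Het and 82.6% (78.8 to 85.9%) in metastasis Hom blood. The order of the samples was the same on both denominators for metastasis against naive blood, and not for Hom against Het in naive blood.

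Shares of one class move with the others in the same sample. In naive blood the neutrophil cluster took up 46.3% of the clear cells of Het and 19.1% of those of Hom, and in metastasis-bearing blood 38.6% and 41.5%. The B cell cluster held 25.4, 40.8, 27.6 and 16.5% in the order naive Het, naive Hom, metastasis Het and metastasis Hom. The part of these shifts in the monocyte shares was not tested. Ratios given below for the other blood cells come from all clear cells outside the class, summed together. They therefore include these shifts, and the part of the shifts in them was not tested. The clusters were also built from genes that differ between the groups, Ly6c2, Vcan and Chil3 among them, and separately for each table, so a share includes whatever those genes did to cluster membership. Restricting the class to the authors' Ly6C-high antibody gate lowered the metastasis Het share to 2.17%, since most of those members lay in the NK1.1 gate described at the end, and left the metastasis Hom share at 17.3%.

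The genes of the labelled genotypes were read first in the comparison of Hom with Het. Ccr2 stood at 19.1 per 10000 in naive Het (17.9 to 20.4, exact Poisson interval), 18.4 in naive Hom (17.1 to 19.6), 22.3 in metastasis Het (21.4 to 23.1) and 18.3 in metastasis Hom members (17.7 to 18.9). It had a count in 98.7% to 100% of the members of every group. Cx3cr1 (chr9:120048683-120068296, GRCm38.p6, protein coding) stood at 2.02 in naive Het (1.63 to 2.47, 94 counts), 0.435 in naive Hom (0.266 to 0.672, 20 counts), 1.94 in metastasis Het (1.69 to 2.21, 221 counts) and 0.245 in metastasis Hom members (0.179 to 0.328, 45 counts). Both Hom samples were low and both Het samples high, and the intervals did not overlap. The log2 ratio of Hom to Het was -2.16 in naive (-2.99 to -1.50) and -2.96 in metastasis-bearing blood (-3.48 to -2.51), which is 4.46-fold and 7.77-fold lower in Hom.

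Members with a Cx3cr1 count were 59.3% in naive Het, 19.6% in naive Hom, 54% in metastasis Het and 10% in metastasis Hom blood. B cells, which should lack it, had a count in 11.9, 12.3, 10.6 and 8.72%, at lower median depths of 4677, 4865, 4257 and 4260 UMIs. With every cell thinned to 2000 corrected counts, the members' shares were 33, 9.78, 33.6 and 6.07%. The shares of the Hom members were closer to those of B cells than the shares of the Het members were. Patrolling monocytes showed the same order at higher levels in Het, 4.65, 0.521, 3.26 and 0.371 per 10000. Which part of the Cx3cr1 transcript the mutant allele alters is not given in the sources used here. EGFP, a reporter listed as a gene in the tables, had 8, 28, 29 and 39 counts in the class and RFP had 22 counts, all in 1 metastasis Het cell. Neither reporter separated Hom from Het in both pairs, since EGFP stood at 0.172 and 0.61 per 10000 in naive and at 0.254 and 0.213 in metastasis-bearing members.

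Beyond Cx3cr1, few genes differed between Hom and Het in the same direction in naive and metastasis-bearing blood. A gene was counted where its log2 ratio, on summed corrected counts with a pseudocount of 1, passed 1.5-fold and the higher group held at least 50 corrected counts. In naive blood 128 of 1460 genes (8.77%) passed, 60 higher (4.11%) and 68 lower (4.66%) in Hom. In metastasis-bearing blood 187 of 3899 genes (4.8%) passed, 100 higher (2.56%) and 87 lower (2.23%), or 77 higher and 107 lower when scaled by the median of ratios instead of the class total. The pairs share no sample, and 4 of 1454 genes (0.275%) passed the same way in both, 1 higher (0.0688%) and 3 lower (0.206%) in Hom.

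Cx3cr1 and Zfp36 were among the 3 genes lower in Hom in both pairs. Zfp36, which encodes the mRNA-destabilising protein tristetraprolin, stood at 2.23, 1.26, 2.32 and 1.44 per 10000 in naive Het, naive Hom, metastasis Het and metastasis Hom members, with log2 ratios of -0.81 (-1.31 to -0.34) and -0.69 (-0.94 to -0.43). Both Het samples were above both Hom samples. In the other blood cells the Zfp36 ratio was -0.68 in naive blood, near that in the class, and -0.14 in metastasis-bearing blood. The calls of the 3 lower genes depended on the cells kept. All 3 were called again at a hashtag share of at least 0.8 and without the Cd209a filter. Only 1 was with all deposited cells, without the gene sums, without cells holding a platelet, B, T or NK marker, or in the Ly6C-high gate. After thinning to 2000 corrected counts 0 were.

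Lyz1, the lysozyme gene next to Lyz2, was the gene higher in Hom in both pairs, at 0.729, 1.26, 1.07 and 2.91 per 10000. Its counts came from few cells, 11, 8.7, 7.66 and 7.39% of the members. Without the highest cell of each group its naive ratio turned to -0.30, so this call rested on single cells. Lyz1 and Lyz2 are near-identical, and reads may have been split between them.

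Most lists had medians near 0 between Hom and Het. Over all genes tested, 4.11% were higher and 4.66% lower in naive Hom, and 2.56% and 2.23% in metastasis Hom members. The classical programme, 20 genes of which 19 passed the filter in both pairs, had a median log2 ratio of 0.03 in naive and 0.03 in metastasis-bearing blood, beside medians of 0.00 and 0.01 over all genes tested. The patrolling monocyte programme, 20 genes, had 1 of 4 lower in naive Hom and 4 of 12 lower in metastasis Hom members, beside 4.66% and 2.23% over all genes, and 0 higher, with medians of -0.22 and -0.24. Monocyte transcription factors, 20 genes, had 2 of 13 higher and 3 lower in naive Hom and 3 of 16 lower in metastasis Hom members. Chemokine receptors and migration genes, 22 genes, had 2 of 12 lower in naive Hom, and 1 of 17 higher and 1 lower in metastasis Hom members. In metastasis-bearing blood, immediate early and dissociation genes, 20 genes, had the lowest list median, at -0.37, with 5 of 18 lower and 0 higher in Hom. In naive blood 1 of 10 was lower and 0 higher, with a median of -0.06. The neutrophil and granule list had the highest median in metastasis-bearing blood, at 0.46, with 5 of 10 higher and 0 lower. Of the lists with at least 3 genes measured, 21 of 23 in naive and 25 of 25 in metastasis-bearing blood had a median within 0.5 of 0.

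Antigen-presentation genes were higher in Hom than in Het in naive blood, and did not pass 1.5-fold in metastasis-bearing blood, a difference between the pairs that was not tested. Of the MHC class II list, 10 genes, 4 of 6 that passed the filter were higher in naive Hom, with a median of 0.85, and 0 of 6 in metastasis Hom, with a median of -0.30. H2-Ab1, a class II beta chain, stood at 2.74, 5.96, 4.85 and 3.28 per 10000 in naive Het, naive Hom, metastasis Het and metastasis Hom members. Cd74, the invariant chain, stood at 13.3, 22.9, 14.9 and 12.5. These levels were carried by few cells, since the cells with the most class II counts, 10% of each group, held between 69.6% and 89.9% of the class II counts of each group. Without the cells high in Retnla, S100a9 or haemoglobin that are described further on, 5 of 6 MHC class II genes were lower in metastasis Hom, with a median of -1.26, and 4 of 6 were higher in naive Hom, with a median of 0.92. H2-K1, a class I heavy chain present in nearly all members, stood at 9.26, 15.7, 7.6 and 8.1, and 3 of 10 class I genes were higher in naive Hom, with a list median of 0.41. In the other blood cells of the naive pair the medians were 0.63 for the class II list and 0.33 for the class I list. Of the clear cells of that pair the B cell cluster held 25.4% in Het and 40.8% in Hom, and its part in these medians was not tested. Irf8, a transcription factor of monocyte and dendritic cell fate, was likewise highest in naive Hom, at 2.66, 5.05, 2.35 and 1.92. B cell markers were also highest in naive Hom members, at 1.54, 3.13, 0.658 and 0.523. Type 2 dendritic cell markers were too, at 0.708, 1.02, 0.974 and 0.78. Before the Cd209a filter, 9 of 175, 37 of 182, 22 of 322 and 23 of 482 clear cells of the clusters held Cd209a. The filter removed only cells with a Cd209a count. The 17 alternative settings included leaving out cells with a platelet, B, T or NK marker. Over all 17 the class II median of naive Hom against Het stayed between 0.44 and 1.69. The part of B and dendritic cells in the class II levels was not tested.

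Metastasis-bearing members differed from naive members at more genes than Hom differed from Het. In Het blood 358 of 2842 genes (12.6%) passed 1.5-fold, 162 higher (5.7%) and 196 lower (6.9%) in metastasis-bearing members. In Hom blood 613 of 3896 genes (15.7%) passed, 282 higher (7.24%) and 331 lower (8.5%). In the Ly6C-high gate alone the order turned for Het, with 149 genes for metastasis-bearing against naive and 531 for metastasis Hom against Het. Scaled by the median of ratios, the splits were 119 and 269 in Het and 224 and 480 in Hom. These levels are set across separately normalised tables, and each is a difference between single samples.

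Het and Hom pairs share no sample, and 101 of 2833 genes (3.57%) passed 1.5-fold in the same direction in both, 48 higher (1.69%) and 53 lower (1.87%) in metastasis-bearing members. With scaling by the median of ratios these were 37 and 78. Of the 48 higher genes, 9 passed in the other blood cells of both pairs too, and of the 53 lower genes 5 did. Without the highest cell of each gene and group, 47 of the 48 and 37 of the 53 were called again under the same fold and count minimum. With the cells of shared barcodes and low hashtag share included, 31 genes passed in both, of which 11 of the higher and 9 of the lower genes were among those above.

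**Figure D2:**
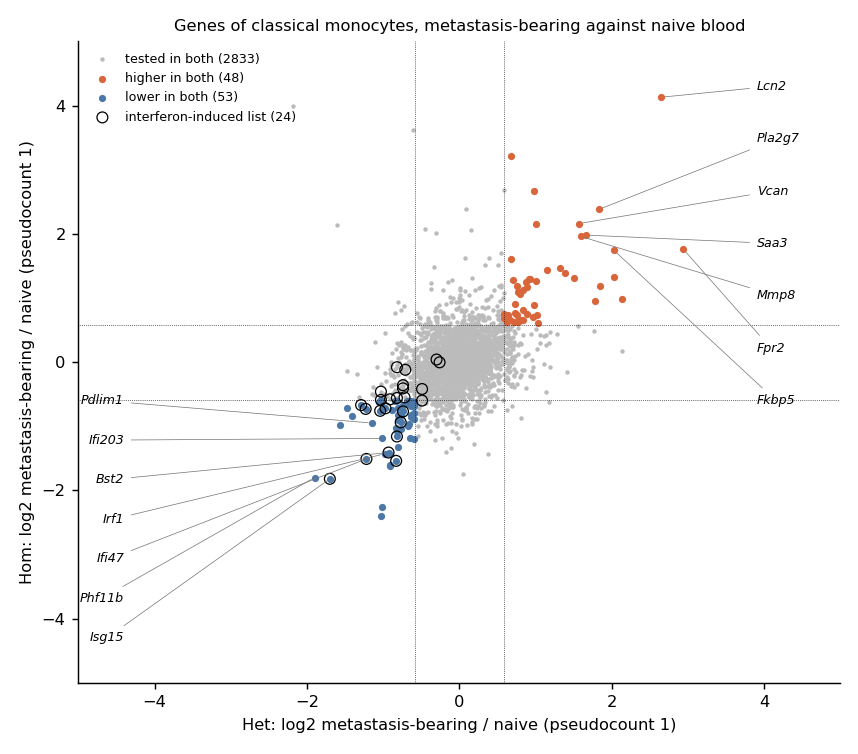
Each point is a gene tested in both pairs, placed by its log2 ratio of metastasis-bearing to naive members in Het on the horizontal axis and in Hom on the vertical axis. The 48 genes higher in both are orange, the 53 lower in both are blue, genes of the interferon-induced list are ringed, and 5 genes beyond the axis limits are not drawn; 23 of the 24 ringed genes lie below 0 on both axes.

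Among the genes higher in metastasis-bearing members, Lcn2 led the ranking. Lcn2 (chr2:32384637-32387739, GRCm38.p6, protein coding) encodes lipocalin 2, a siderophore-binding protein of acute inflammation. It stood at 0.45 per 10000 in naive Het (0.279 to 0.688), 0.131 in naive Hom (0.0479 to 0.284), 2.95 in metastasis Het (2.64 to 3.28) and 2.67 in metastasis Hom members (2.44 to 2.92). Both metastasis samples were high and both naive samples low, with no overlap of intervals. The level was 6.27-fold higher in Het, a log2 ratio of 2.65 (2.07 to 3.42), and 17.6-fold higher in Hom, 4.13 (3.22 to 5.81).

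Lcn2 is also a neutrophil gene, and free neutrophil RNA can reach any droplet. Members with a Lcn2 count were 11, 5.43, 40.9 and 35.4% in the order naive Het, naive Hom, metastasis Het and metastasis Hom, while B cells showed 5.73, 6.32, 5.24 and 5.92%. After thinning to 2000 corrected counts the shares were 5.49, 2.17, 29.8 and 26.9% in the class against 2.98, 3.22, 2.97 and 3.74% in B cells. The part of free RNA in the difference was not tested. In the other blood cells together the log2 ratio was 0.07 in Het and 2.07 in Hom. In Hom the neutrophil cluster held 19.1% of naive and 41.5% of metastasis-bearing clear cells. Among the deposited cells with the shared barcodes kept in, the members' ratios were 0.44 in Het and 1.85 in Hom.

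Pla2g7, next in the ranking, encodes a secreted phospholipase that inactivates platelet-activating factor. It stood at 1.99, 1.18, 7.15 and 6.24 per 10000 and was counted in 52.7, 39.1, 91.1 and 90.8% of members, so its difference spread over most cells. Its log2 ratios were 1.83 in Het and 2.38 in Hom. Fpr2, a formyl peptide receptor, stood at 0.172, 0.239, 1.46 and 0.889, with ratios of 2.93 and 1.77. Mmp8, a neutrophil-type collagenase, stood at 1.05, 0.74, 3.21 and 2.96, with ratios of 1.59 and 1.96, and was counted in 57.9% of metastasis Het and 58.8% of metastasis Hom members. Saa3, an acute-phase serum amyloid, stood at 0.15, 0.152, 0.535 and 0.681, in 3.3, 3.26, 10.2 and 13.2% of members. It had 7 counts in naive Het and 7 in naive Hom, and its ratios were 1.66 (0.70 to 3.21) and 1.98 (1.08 to 3.50). For each of these genes both metastasis samples lay above both naive samples. In the other blood cells the ratios in Het and Hom were 0.37 and 1.72 for Pla2g7, 0.10 and 1.79 for Fpr2, 0.37 and 1.60 for Mmp8, and 0.72 and 0.67 for Saa3. The other blood cells, as a pooled sum, thus also stood higher, by about as much for Fpr2 in Hom. The larger neutrophil cluster of metastasis Hom than of naive Hom blood is included in that sum, and its part was not tested.

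Vcan, a gene of the selection rule, was also higher in metastasis-bearing members within the class. It stood at 2.62 (2.17 to 3.12), 1.31 (0.997 to 1.68), 7.82 (7.31 to 8.35) and 5.92 per 10000 (5.57 to 6.28), with log2 ratios of 1.57 (1.30 to 1.86) in Het and 2.16 (1.80 to 2.58) in Hom. In the other blood cells its ratios were 0.35 and 2.47. Fkbp5, a glucocorticoid-induced chaperone, stood at 0.15, 0.109, 0.693 and 0.431, with ratios of 2.03 and 1.74. The ratios of Fkbp5 in the other blood cells were 1.99 and 1.77, near those in the class. Rbm3, a cold-inducible RNA-binding protein, stood at 3.99, 4.29, 9.99 and 11.9 and was likewise higher in other blood cells, with ratios of 1.35 and 0.77 there.

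The marker genes moved separately. Chil3 stood at 32.5 (30.9 to 34.2), 50.3 (48.3 to 52.4), 143 (141 to 145) and 99.1 per 10000 (97.7 to 101), with log2 ratios of 2.14 in Het and 0.98 in Hom, beside 2.67 and 2.11 in the other blood cells. Ly6c2 went the other way, at 21.1 (19.8 to 22.5), 23.1 (21.7 to 24.6), 13.6 (12.9 to 14.3) and 15.1 (14.6 to 15.7), with ratios of -0.64 and -0.61. F13a1 differed by less than 1.5-fold, at 9.67, 8.88, 13.8 and 10.6. Fn1, fibronectin, stood at 15.9, 17.9, 28.6 and 24.1 and passed 1.5-fold in Het alone, with ratios of 0.84 and 0.43, and the difference between those ratios was not tested. The classical programme as a whole had a median of 0.16 in Het and 0.10 in Hom, with 4 genes higher and 3 lower of 19 in Het and 5 higher and 3 lower of 19 in Hom. Over all genes 5.7% were higher and 6.9% lower in Het, and 7.24% and 8.5% in Hom.

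**Figure D3:**
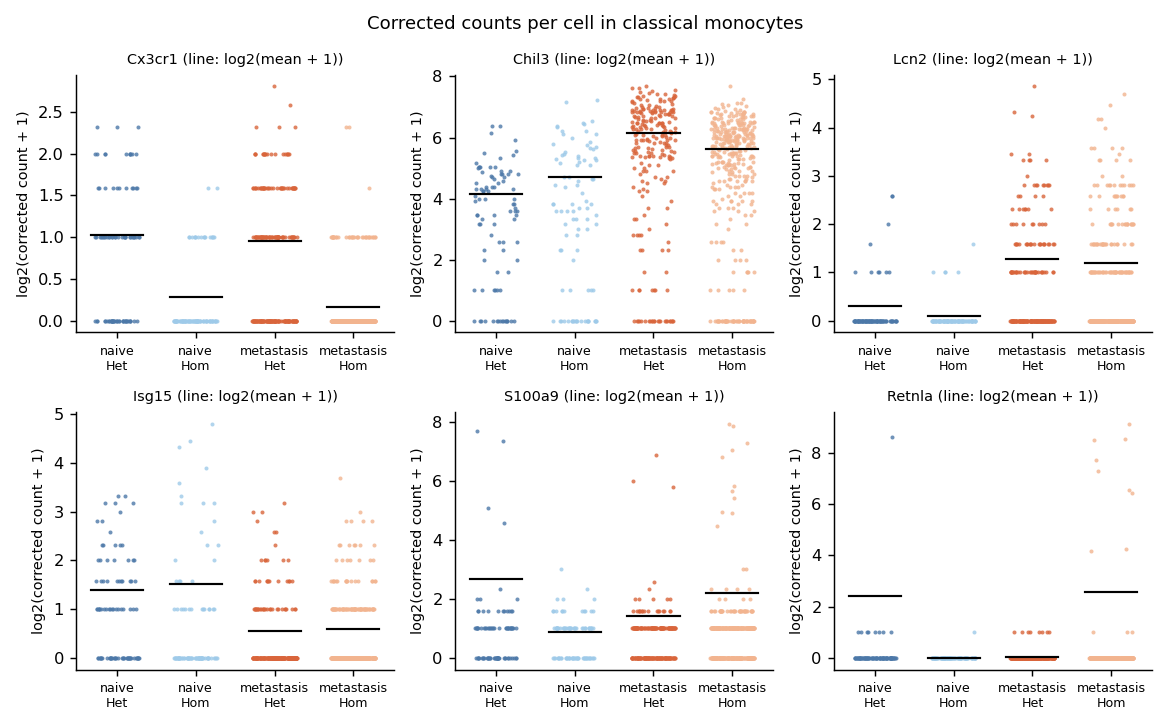
Each panel plots the corrected count per cell of a gene, as log2 of the count plus 1, in the members of the 4 samples; points are cells and the line marks the log2 of the mean plus 1. Chil3 lies higher in most metastasis-bearing cells, Cx3cr1 is near 0 in most Hom cells, and Retnla and S100a9 have a few cells far above the rest.

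Interferon-induced genes were lower in metastasis-bearing members in both genotypes. The list had 41 genes. Of 24 that passed the filter in Het, 20 were lower past 1.5-fold and 0 higher, with a median log2 ratio of -0.82. Of 31 in Hom, 19 were lower and 0 higher, with a median of -0.67. The medians over all genes tested were -0.01 and -0.02, and 6.9% and 8.5% of those genes were lower past 1.5-fold. Without a filter on low counts, 35 of the 41 interferon-induced genes were lower and 1 higher past 1.5-fold in Het, and 29 were lower and 0 higher in Hom. At that setting 118 of all genes were higher and 1742 lower in both pairs. The pseudocount of 1 weighs more in the smaller naive totals, so genes with few counts tend to read lower in metastasis-bearing members. These unfiltered counts are therefore no result about the list. In the 17 alternative settings the list median stayed between -1.01 and -0.53 in Het and between -0.81 and -0.41 in Hom. Between Hom and Het the same list had medians of -0.06 in naive and 0.12 in metastasis-bearing blood.

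Isg15 encodes a ubiquitin-like protein that is conjugated to targets after type I interferon. Isg15 (chr4:156199424-156200818, GRCm38.p6, protein coding) stood at 3.17 per 10000 in naive Het (2.68 to 3.73), 3.74 in naive Hom (3.21 to 4.35), 0.974 in metastasis Het (0.801 to 1.17) and 1.06 in metastasis Hom members (0.919 to 1.22). The naive samples were high, the metastasis samples low, and the intervals did not overlap. The level was 3.25-fold lower in Het, a log2 ratio of -1.70 (-2.07 to -1.34), and 3.52-fold lower in Hom, -1.82 (-2.12 to -1.51). Members with an Isg15 count were 56, 35.9, 22.1 and 28%, and 38.5, 22.8, 11.5 and 14.5% after thinning.

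Other induced genes followed the same order. Phf11b, a gene of the PHD finger 11 family, led the ranking at 1.65, 1.92, 0.439 and 0.551 per 10000, with ratios of -1.90 and -1.80. Ifi47, an interferon-inducible GTPase, stood at 2.14, 2.66, 0.921 and 0.932, with ratios of -1.22 and -1.51. Bst2, tetherin, which holds budding virus at the cell surface, stood at 3.86, 6.77, 2.03 and 2.56, with ratios of -0.93 and -1.41. For all 3 genes both naive samples lay above both metastasis samples. Transcription factors of the response were lower as well. Irf7 stood at 2.77, 3.68, 1.57 and 1.65, with ratios of -0.82 and -1.16. Irf1, which responds to both interferon types, stood at 0.879, 1.02, 0.447 and 0.382, with ratios of -0.98 and -1.43. Ifi203, of the p200 family of DNA-binding proteins, had ratios of -1.01 and -1.19, and Ifi27l2a, the most abundant of these at 31.5, 33.7, 18.9 and 19.7, had ratios of -0.74 and -0.77.

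**Figure D4:**
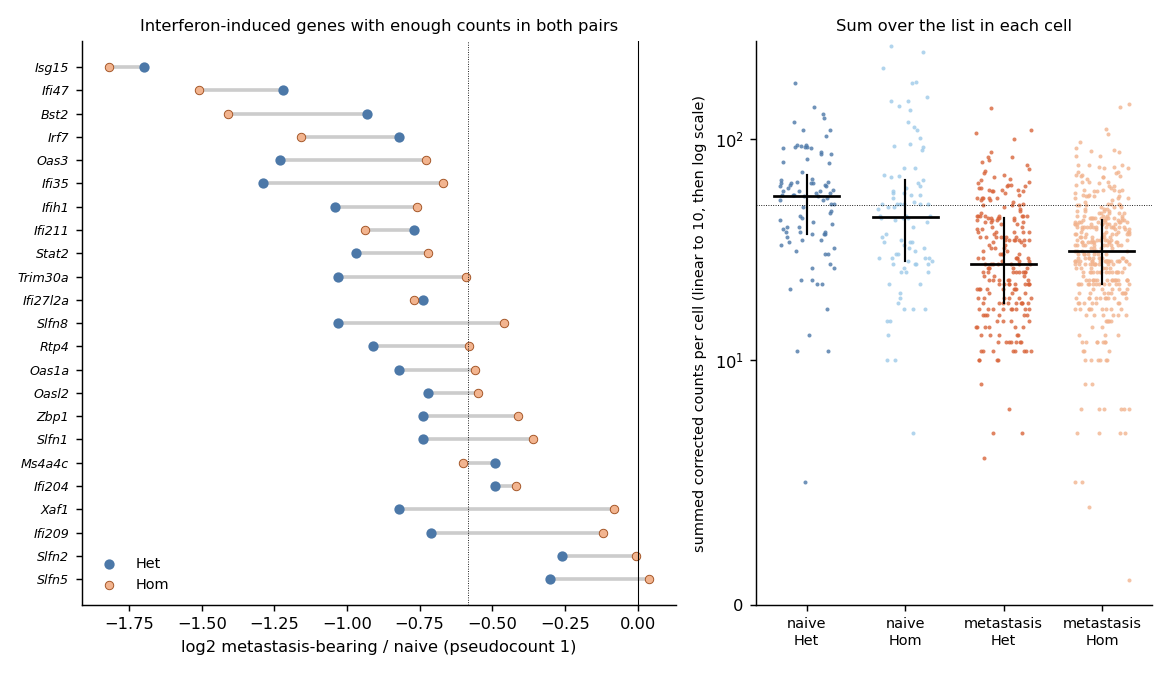
The left panel gives the log2 ratio of metastasis-bearing to naive members for interferon-induced genes with enough counts in both pairs, with Het in blue and Hom in orange and a dotted line at 1.5-fold lower. The right panel gives the summed corrected count of the list in each cell of the 4 samples, linear to 10 and logarithmic above, with a dotted line at 50; the metastasis-bearing cells lie lower, with medians of 27 and 31 against 55 and 44.

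The difference was spread over many cells. The list summed to a median of 55 corrected counts per cell in naive Het, 44 in naive Hom, 27 in metastasis Het and 31 in metastasis Hom members. At least 50 counts of the list were present in 57.1% of members from naive Het (46.3 to 67.5%), 43.5% from naive Hom (33.2 to 54.2%), 19.1% from metastasis Het (14.3 to 24.8%) and 16.4% from metastasis Hom blood (12.8 to 20.5%). In the other clear blood cells of the same samples the list's median log2 ratio was -0.70 in Het and 0.33 in Hom, and Isg15 itself had -1.86 and 0.41. As a pooled sum the other cells thus stood lower in Het blood and not in Hom blood. Their make-up differed as well. The neutrophil cluster held 46.3% of naive and 38.6% of metastasis-bearing clear cells in Het, and 19.1% and 41.5% in Hom. Whether any other cell type differed in these genes was not tested. In the naive Hom sample a part of the signal was concentrated, since 4 of 92 cells held 94.9% of the Cxcl10 counts, an interferon-induced chemokine. Those 4 cells had Isg15 at 36.5 per 10000 against 2.71 in the other naive members.

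Promoters of the lower genes were read because interferon acts through a known element, the interferon-stimulated response element, to which IRF factors bind. The letters GAAA, followed after any 2 bases by GAAA again, were searched on both strands in the 250 bases before RefSeq gene starts of GRCm38.p6. The starts searched did not cover every chromosome, and overlapping matches were capitalised together. They occurred in 936 of 27025 genes of the table (3.46%) and in 106 of the 2258 genes tested in both pairs that could be matched (4.69%). Of the 53 genes lower in metastasis-bearing members 39 were matched and 11 of these held the letters (28.2%). Of the 48 higher genes 37 were matched and 3 held them (8.11%). Of the interferon-induced list 15 of 32 matched genes held them (46.9%), and 12 of the 53 lower genes are on that list (22.6%). The 150 bases before the start are shown for Isg15 and Bst2, whose matches overlap, with the matching letters in capitals.
Isg15, chr4:156200819-156200968, minus strand: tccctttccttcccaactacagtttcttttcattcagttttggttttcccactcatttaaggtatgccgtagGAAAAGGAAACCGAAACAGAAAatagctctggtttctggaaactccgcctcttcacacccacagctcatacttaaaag
Bst2, chr8:71537473-71537622, minus strand: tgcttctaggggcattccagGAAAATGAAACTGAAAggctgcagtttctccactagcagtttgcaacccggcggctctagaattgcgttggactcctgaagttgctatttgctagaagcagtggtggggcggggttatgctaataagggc
In Isg15 matches begin 78, 72 and 66 bases before the start, and in Bst2 130 and 124 bases before it. Ifi47, Irf7 and Irf1 among the lower genes, and Lcn2, Vcan, Pla2g7, Fpr2 and Mmp8 among the higher ones, held no match in this window, while Saa3 held 1, beginning 125 bases before its start. A match is a run of letters, and binding was not measured.

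MHC class I and heat shock genes had medians below 0 in both pairs. Over all genes tested 5.7% were higher and 6.9% lower in Het, and 7.24% and 8.5% in Hom. Of the MHC class I list, 16 genes, 1 of 11 was lower past 1.5-fold in Het, a share near the 6.9% over all genes, with a median of -0.30. In Hom 7 of 13 were lower, with a median of -0.60, and the medians in the other blood cells were -0.09 and -0.49. The 11 genes that could be read in both pairs all had ratios below 0. MHC class II genes had 3 of 6 higher in Het, with a median of 0.39, and 4 of 6 lower in Hom, with a median of -0.73. The medians in the other blood cells were 0.35 and -0.79, and the difference between the pairs was not tested. In Hom blood the B cell cluster held 40.8% of naive and 16.5% of metastasis-bearing clear cells. Its part in the medians of the other blood cells was not tested. Of the heat shock list, 11 genes, 2 of 6 were lower in Het and 3 of 6 in Hom, with medians of -0.35 and -0.59 in the class and -0.30 and -0.75 in the other blood cells. Dnaja1, an HSP40 co-chaperone, stood at 2.44, 2.42, 0.921 and 1.35 per 10000. Hsp90aa1, the inducible HSP90, stood at 1.29, 1.52, 0.86 and 0.665. Genes lower in both pairs outside these lists included Pdlim1, a cytoskeletal adaptor, at 1.44, 1.79, 0.649 and 0.932.

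The list counts that follow stand beside 5.7% of all genes higher and 6.9% lower in Het, and 7.24% and 8.5% in Hom. Of the lists that stood higher, coagulation and matrix genes had 4 of 10 higher in Het and 3 of 10 in Hom and none lower, with medians of 0.54 and 0.44. In the other blood cells the medians were -0.01 and 1.28, and without a filter on low counts the coagulation and matrix median in Het was -0.21. Vcan, which the rule selects on, was among the higher genes. Tgfbi, a matrix protein induced by TGF-beta, stood at 6.11, 5.16, 10.5 and 11, with other-cell ratios of 0.09 and 1.69. Glucocorticoid-induced genes had 3 of 7 higher in Het and 4 of 8 in Hom and none lower, with medians of 0.50 and 0.53, and Fkbp5 led them; the other blood cells had medians of 0.40 and 1.12. Complement and Fc receptor genes had 2 of 10 higher and 1 lower in Het and 8 of 12 higher in Hom, with medians of 0.11 and 0.74. Without the cells high in Retnla, S100a9 or haemoglobin, 4 of 9 genes of the complement and Fc receptors list were higher in Hom, with a median of 0.33. The other blood cells had medians of -0.32 and 0.98 for complement and Fc receptors, and 0.00 and 1.84 for the neutrophil and granule list. The part of the larger neutrophil cluster of metastasis Hom than of naive Hom blood in these medians was not tested. Neutrophil and granule genes, 20 genes, had 2 of 8 higher and 4 lower in Het, with a median of -0.23, and 8 of 10 higher and 1 lower in Hom, with a median of 2.09. Without the cells high in Retnla, S100a9 or haemoglobin the neutrophil and granule medians were 0.55 and 2.00. Inflammatory cytokines and NF-kB targets had 0 of 6 higher and 1 lower in Het, and 1 of 8 higher and 1 lower in Hom. With so few genes these counts cannot be set apart from the shares over all genes. Arg1, arginase 1, a gene of suppressive myeloid cells, had no count in any member, which with 3 counts as the limit allows a share of up to 3.3, 3.26, 1.28 and 0.792% of cells with a count in the 4 groups, which does not bound the cells that express it. Il1b, which encodes interleukin 1 beta, stood at 1.22, 0.218, 0.991 and 0.959. In 4 naive Het cells high in S100a9, Il1b was 19.2 per 10000, against 0.309 in the other naive members. Of the lists with at least 3 genes measured, 20 of 24 in Het and 16 of 25 in Hom had medians within 0.5 of 0.

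Some genes that differed most in size were carried by a handful of members, and they went opposite ways in the pairs. Retnla encodes the resistin-like molecule alpha, a product of alternatively activated macrophages. Retnla (chr16:48842609-48844461, GRCm38.p6, protein coding) stood at 8.53 in naive Het, 0.0218 in naive Hom, 0.0702 in metastasis Het and 10.2 per 10000 in metastasis Hom members. In naive Het 1 of 91 cells held 98% of the counts, and in metastasis Hom 9 of 379 cells held 99.8%. Those 9 cells had Retnla at 409 per 10000, Lyz1 at 100, Pltp, a phospholipid transfer protein, at 47.5, the complement gene C1qb at 40.8 and the class II gene H2-Aa at 93.9. Ccr2 was 15.3 in them, and Ly6c2, Vcan and Chil3 were at 0 in all 9, against 14.8, 6.75 and 118 in the other members of that table. Their first gene sum came from Fn1, at 43.6, from Ccr2 and from F13a1, at 3.27, so 3 of the 5 class markers had no count in them. The naive cell likewise had Ly6c2, Vcan and Chil3 at 0.

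S100a9, a calprotectin subunit abundant in neutrophils, stood at 10.4, 1.68, 3.41 and 7.43 per 10000, and S100a8, its partner, at 8.34, 0.827, 5.48 and 10.4. Cells with at least 20 counts of S100a9 numbered 4, 0, 3 and 11 and held 86.2, 0, 59.9 and 80.2% of the counts. In metastasis-bearing blood these cells had the neutrophil genes Retnlg at 29.8, Cxcr2 at 5.32 and Csf3r at 5.61, against 0.0344, 0.00688 and 0.475 in the other members. They also had Ccr2 at 16.4, Ly6c2 at 11.2 and Chil3 at 97.8, so both sets of genes were counted under the same barcode. The 4 such naive Het cells had Retnlg at 25.6 with Ly6c2 at 22.7. Without the cells high in Retnla, S100a9 or haemoglobin, 110 genes passed 1.5-fold in both pairs of metastasis-bearing against naive blood, 57 higher and 53 lower, of which 46 and 43 were among the 48 higher and 53 lower genes reported.

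The authors' antibody gates placed most members where the RNA did, with an exception in metastasis Het. The gates followed each other, so a cell placed in an early gate did not reach the Ly6C gate. In the Ly6C-high gate lay 63 of the 91 members from naive Het blood, 77 of the 92 from naive Hom, 45 of the 235 from metastasis Het and 337 of the 379 from metastasis Hom. Of the members that reached it, 63 of 66 (95.5%), 77 of 79 (97.5%), 45 of 46 (97.8%) and 337 of 371 (90.8%) were called Ly6C-high. In metastasis Het 180 of 235 members (76.6%, 70.7 to 81.9%) were instead called NK1.1-positive, and 0 members of the other 3 groups were.

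**Figure D5:**
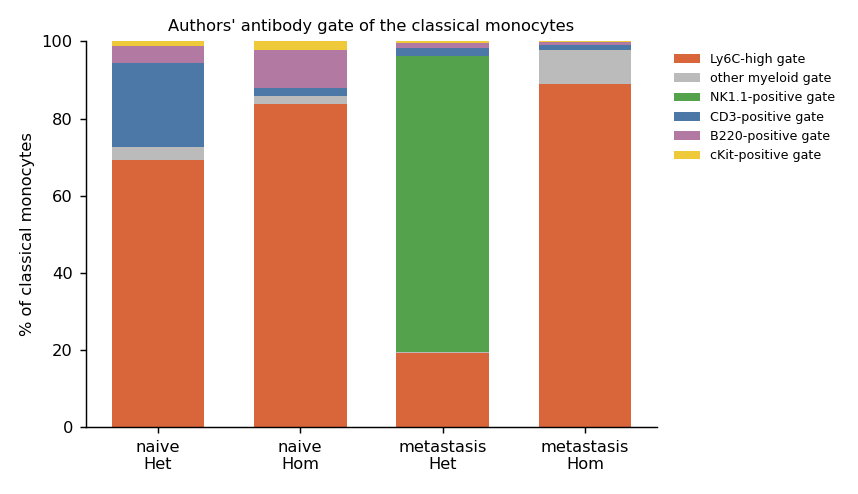
Stacked bars give the percentage of members in each of the authors' antibody gates in the 4 samples. The metastasis Het bar is mostly NK1.1-positive, at 76.6%, whereas the other bars are mostly Ly6C-high, and naive Het has 22% in the CD3-positive gate.

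Members were selected on RNA, so the levels of Ccr2 and Ly6c2 in NK1.1-positive members are a description. These members held 1 count of Klrb1c, which encodes NK1.1, and 1 of Ncr1, both NK cell genes, among 180 cells. Their Ccr2 level was 22.7 per 10000 and their Ly6c2 level 13, against 21.7 and 15.8 in the 46 NK1.1-negative members. Isg15 was 0.93 and 0.755, Cx3cr1 2.02 and 1.55, and Lcn2 2.45 and 5.33. Their median antibody UMI total was 5800 against 4989. The call was not particular to the class. In the same sample 41 of 65 patrolling monocytes (63.1%) and 325 of all 2074 clear cells (15.7%) were NK1.1-positive, against 25 of 800 cells of the neutrophil cluster (3.12%). In metastasis Hom blood 14 of 1945 clear cells (0.72%) were.

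In naive Het 20 of 91 members (22%, 14 to 31.9%) were called CD3-positive, a T cell antigen, and in naive Hom 2 of 92 (2.17%). Those 20 cells held no count of Cd3e, 1 count of Cd3d and 1 count of Trac, genes of the T cell receptor complex, and the 2 naive Hom cells held 1 count of Cd3e and 1 of Cd3d. In the same sample 29 of 75 patrolling monocytes were called CD3-positive as well. The antibody counts behind these gates were not analysed here, and the NK1.1 and CD3 labels of the members rest on the authors' call.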

How the data were processed

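Messenger RNA, antibody and hashtag libraries of 1 pool were measured on the 10x 3' v3 platform. Cell Ranger 3.1 and mm10 are named in the submitters' processing notes. The values the authors deposited for blood are natural log values, ln of 1 plus a corrected count that the deposited metadata name SCT, normalised separately for naive and metastasis-bearing blood. The exponential minus 1 was whole within 1.18e-11 and 1.00e-11, so corrected counts were recovered exactly. Other deposited columns, the groups, clusters and gates, were used as the authors gave them. Raw counts were not analysed here.

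Corrected counts were summed over members per group, divided by the class total and set in ratio with a pseudocount of 1. With 1 sample per group no test was run. Intervals are exact Poisson or Clopper-Pearson at 95%, and those of ratios condition on the summed count; they cover counting error only. Doublets were treated only through shared barcodes and the hashtag share. Members, lists and markers were chosen with earlier results of these data known. Named genes were up to 8 higher and 8 lower past 1.5-fold in both pairs, up to 4 in opposite directions, 20 class genes, the labelled genotypes' genes and members of the 27 lists; rankings leave out genes of ribosomes, mitochondria, haemoglobin and antigen receptors, and unnamed Gm and Rik models. Calculations used Python 3.11.15 with numpy 2.4.6, pandas 2.3.3 and scipy 1.17.1, and the steps were tested on simulated data. Alternatives changed the cells kept, depth, weighting, scaling, pseudocount, filter and fold. Some of the ranked genes are not reported here.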

Additional observations from a re-analysis of the deposited data

Results flagged for a closer look

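Between the pairs of Hom against Het, 4 genes moved in opposite directions past 1.5-fold. Retnla had a log2 ratio of -7.62 in naive and 7.02 in metastasis-bearing blood, a difference of 14.64. Retnlg, a resistin-like gene of neutrophils, had -4.15 and 2.03, a difference of 6.17. S100a9 had -2.62 and 1.12, a difference of 3.74, and S100a8 had -3.30 and 0.93, a difference of 4.23. With 1 sample per group the differences were not tested. Without the highest cell of each group the ratios were -3.15 and 6.68 for Retnla, -2.98 and 1.74 for Retnlg, -1.98 and 1.34 for S100a9, and -2.87 and 1.15 for S100a8.

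Between the pairs of metastasis-bearing against naive blood, which draw on the same 4 samples, Retnla had -6.76 in Het and 7.88 in Hom, a difference of 14.64, Retnlg had -2.19 and 3.99, a difference of 6.17, and S100a9 had -1.61 and 2.13, a difference of 3.74. H2-Ab1 had 0.81 in Het and -0.87 in Hom, a difference of -1.68, and 1.28 and -0.80 without the highest cell. None of these differences was tested. Members with at least 20 counts of S100a9 numbered 4, 0, 3 and 11 in naive Het, naive Hom, metastasis Het and metastasis Hom, and those with at least 10 counts of Retnla numbered 1, 0, 0 and 9.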

How the results depend on the processing

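The number of genes past 1.5-fold moved with the cells kept, the depth and the filter. As reported it was 128 and 187 for Hom against Het in naive and metastasis-bearing blood and 4 the same way in both, and 358, 613 and 101 for metastasis-bearing against naive blood in Het, Hom and both. With all deposited cells it was 197 in Het and 31 in both. Without the comparison of the gene sums it was 218 for naive Hom against Het, 19 in both of those pairs, and 186 in both pairs of metastasis-bearing against naive. With the Ly6C-high gate only it was 531 for metastasis Hom against Het and 7 in both of those pairs, 6 higher and 1 lower, and 149 in Het and 49 in both for metastasis-bearing against naive. Thinned to 2000 corrected counts, the 6 counts in the order given first were 51, 103, 0, 184, 368 and 56, the last with 37 higher and 19 lower. With at least 20 corrected counts they were 603, 746, 26, 1165, 1533 and 317, with at least 200 they were 18, 34, 0, 63, 132 and 23, with no filter 4285, 3419, 836, 4366, 5069 and 1860, and at 2-fold 35, 27, 1, 74, 161 and 21. A pseudocount of 10 gave 967 in Hom for metastasis-bearing against naive, and 17 higher and 113 lower in both. The share of the class was 6.84, 5.9 and 17.6% in naive Het, naive Hom and metastasis Hom with all deposited cells. Without the gene sums it was 9.67, 7.33, 14.5 and 23.6%, without cells holding a platelet, B, T or NK marker 4.02, 3.74, 9.59 and 17%, in the Ly6C-high gate 3.67, 2.17 and 17.3% in naive Het, metastasis Het and metastasis Hom, and without the Cd209a filter 6.47% in naive Hom. In all of these the order of metastasis-bearing above naive held in Hom, and in Het it turned only in the Ly6C-high gate.

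Of 728 values of the ranked genes under 13 alternatives, 588 stayed within their counting interval, 117 moved beyond it and 23 turned. For Hom against Het, Lyz1 was -0.30 in naive blood without the highest cell and -1.38 in metastasis-bearing blood without cells high in Retnla, S100a9 or haemoglobin. Retnla was 0.17 in naive blood with all cells, and in metastasis-bearing blood -2.47 in the gate and -1.80 without the high cells. Retnlg was 0.33 and 0.56 in naive blood in the gate and without the high cells, and in metastasis-bearing blood -0.91 without the gene sums, -1.89 in the gate and -1.11 without the high cells. S100a9 was 0.17 in naive blood without the high cells and -1.11 in metastasis-bearing blood without the gene sums, and S100a8 was -0.90 there and -0.01 in the gate. For metastasis-bearing against naive in Hom, Retnla was -1.08 in the gate and -0.94 without the high cells, Retnlg -1.66 and -1.20, and S100a9 -0.21 without the high cells. In Het, Retnlg was 0.16 without the gene sums, 0.56 in the gate and 0.47 without the high cells. The high cells and highest-cell alternatives were chosen after seeing the data. No paired analysis was possible because each group was 1 sample with no replicate number, and no replicate could be left out for the same reason. The corrected totals of 466392 and 459356 in naive members limit the low genes.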

Other observations

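Some surface receptor genes not described above were also higher in metastasis-bearing members in both genotypes. C5ar1, the receptor of complement C5a, stood at 0.236 per 10000 in naive Het, 0.109 in naive Hom, 0.561 in metastasis Het and 0.349 in metastasis Hom members, with log2 ratios of 1.15 in Het and 1.44 in Hom. Cd177, a surface protein known from neutrophils, stood at 1.54, 1.59, 2.48 and 2.53 and was counted in 58.2, 51.1, 62.1 and 60.4% of members. Ms4a4a stood at 0.236, 0.0435, 0.5 and 0.409, with ratios of 0.98 and 2.67. Its naive Hom level lay below the 0.0653 per 10000 that 3 counts give there, and that of C5ar1 not far above it. In the pooled other blood cells the ratios in Het and Hom were 0.07 and 1.47 for C5ar1, 0.33 and 2.23 for Cd177, and 0.28 and 1.43 for Ms4a4a. These genes were chosen after their values were seen.

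Cxcl10 differed in opposite directions between Hom and Het, at 0.107 and 1.28 per 10000 in naive and 0.412 and 0.0763 in metastasis-bearing members, through 0, 4, 2 and 1 cells with at least 5 counts.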
